A study of Mus musculus with 8 samples.

Results

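The oxidative phosphorylation genes measured here were the 89 mouse genes, of 19938 with a row of a single gene symbol, whose symbols begin with Nduf, Cox4 to Cox8, Uqcr or Atp5 or are Sdha, Sdhb, Sdhc or Sdhd. Where a gene had several rows, it was represented by the row of the highest average level. By role, 34 genes belonged to complex I, 4 to complex II, 8 to complex III, 19 to complex IV and 17 to complex V, and 7 encode complex I assembly factors with an Ndufaf symbol. The complex IV genes comprised 11 expressed in most tissues and 8 tissue-restricted isoforms or relatives. Ndufa4, named for complex I, was placed with complex IV, where its protein is now assigned. Cox7c and Ndufb4 had only rows shared with a second gene and were not members.

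Sorted bone marrow progenitors were profiled on 8 arrays (Affymetrix Mouse Gene 1.0 ST), 2 in each of 4 groups. LSK cells (lineage-negative, Sca-1+ and Kit+) include the stem cells and the earliest, multipotent progenitors; GMP cells are progenitors committed to granulocytes and macrophages. Knockout (KO) mice were Vav1-iCre x Cbfb(F/F) and control (Het) mice were Vav1-iCre x Cbfb(F/+), all of a C57BL6 N12 backcrossed background and 7 weeks old. All 4 groups thus carried the Cre, which the Vav1 promoter drives in blood cells, and at least 1 floxed allele of Cbfb, the gene of the subunit that stabilises RUNX factors on DNA. No wild type was measured. The LSK and GMP cells came from 2 mice of each genotype, 200000 cells a sample at a purity above 98%, and the labels do not tie an array to a mouse. P-values therefore measure the spread between these arrays, and an exact permutation test of 2 against 2 arrays cannot go below p = 0.333.

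Oxidative phosphorylation is the work of 5 complexes of the inner mitochondrial membrane. Complexes I and II pass electrons from NADH and succinate to ubiquinone, complex III passes them on to cytochrome c and complex IV to oxygen, and complex V makes ATP from the proton gradient that complexes I, III and IV build. Most subunits are encoded in the nucleus, as are all members described here. Blood stem cells are known for low respiration and reliance on glycolysis, and respiration rises as they commit to a lineage.

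The array values are log2 expression levels, so a difference of 1 is a 2-fold change, and levels of different genes are not comparable because each has its own probes. A gene was called in a comparison when limma's Benjamini-Hochberg adjusted p, taken over 21789 rows, was under 0.05. Cbfb stood at 7.56 and 7.55 on the Het LSK arrays, 6.93 and 6.98 in KO LSK, 7.53 and 7.65 in Het GMP, and 6.48 and 6.96 in KO GMP. It fell by 0.86 in KO GMP (SE 0.16, limma adjusted p = 0.0130); in LSK its difference was -0.60 (SE 0.16, adjusted p = 0.0557). Whether the Cbfb probes lie in the floxed part is not stated in the sources used. The mean of 8 GMP markers (Mpo, Elane, Ctsg, Prtn3, Fcgr3, Csf3r, Cebpa and Csf1r) lay between 9.81 and 10.46 on the GMP arrays and between 7.66 and 8.11 on the LSK arrays, and the 6 measured LSK markers (Kit, Slamf1, Flt3, Procr, Mecom and Hlf) were highest in Het LSK (7.84 and 8.19) and lowest in Het GMP (5.36 and 5.45), with 7.21 and 6.69 in KO LSK and 6.08 and 5.90 in KO GMP. The LSK markers thus differed between genotypes: in KO LSK 4 of 6 were called lower (Flt3, Procr, Mecom and Hlf) and 1, Slamf1, higher, with differences from -3.41 to 2.40. The Hlf call was lost when most single arrays were left out. Arrays correlated at 0.990 to 0.995 within a group and 0.955 to 0.983 between groups.

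Of the 89 genes, 84 lay above the median row on all 8 arrays, and 4 lay below it on all 8: these are Cox7b2, Cox8b, Cox8c and Ndufa4l2, tissue isoforms or relatives of complex IV subunits. The members moved together across arrays. Their median level was 9.32 and 9.14 in Het LSK, 9.09 and 9.42 in KO LSK, 9.77 and 9.81 in Het GMP and 9.45 and 9.49 in KO GMP. The 2 Het GMP arrays were the highest and no KO GMP array reached them, while the LSK arrays of both genotypes interleaved. A Het GMP array held the highest value of 75 members, and an LSK array the lowest of 83, of which KO LSK replicate 1 held 61.

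**Figure D1:**
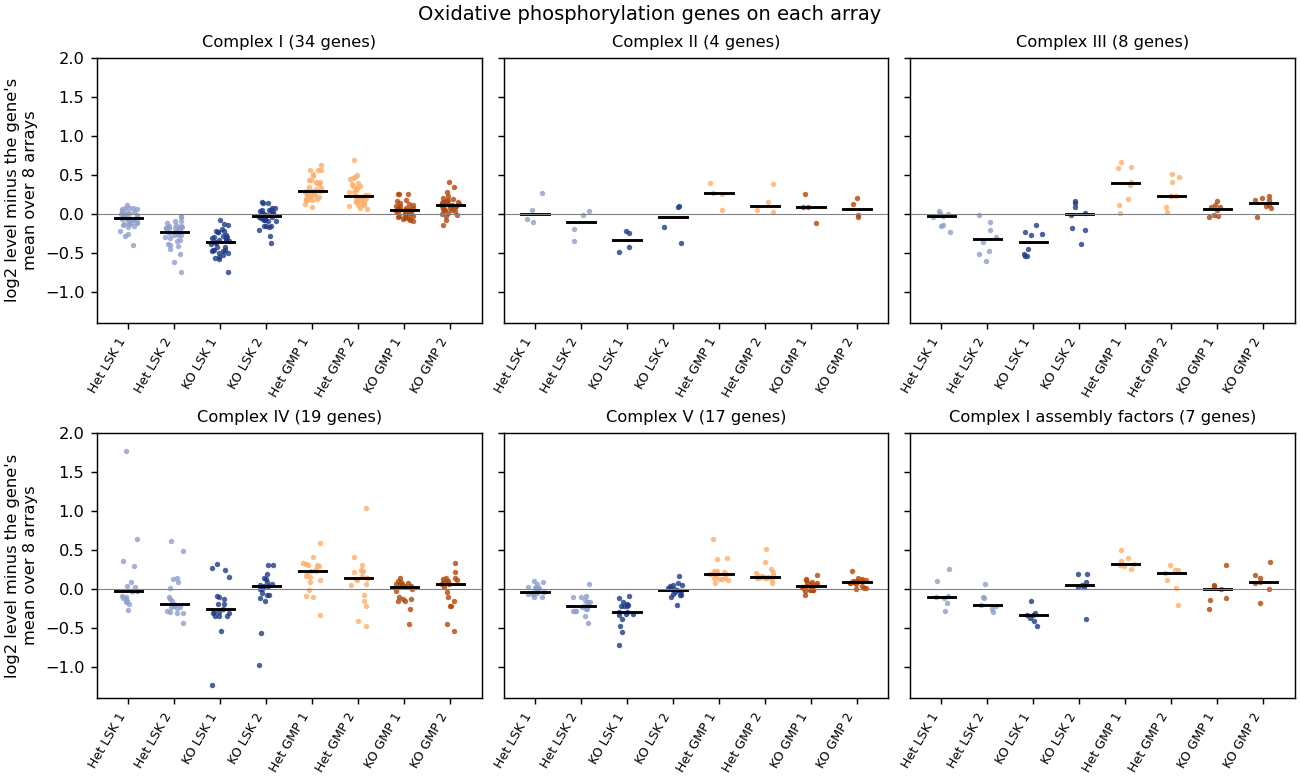
Level of each member on each array minus that gene's mean over the 8 arrays (log2), by complex; points are genes and bars are medians. By median, the Het GMP arrays lie highest in each complex and KO LSK replicate 1 lowest. In complex I the medians are 0.29 and 0.23 for Het GMP and -0.36 for KO LSK replicate 1. In complex IV the highest outlying point is Cox6a2 on Het LSK replicate 1, and the lowest are Cox6b2 on the KO LSK arrays.

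Replicates differed as a block. KO LSK replicate 1 lay below replicate 2 in 84 of 89 members, by a median of 0.32, whereas 50.0% of all rows lay below. Het LSK replicate 1 lay above replicate 2 in 82 members (median of replicate 2 minus replicate 1, -0.18), and the gaps were smaller in Het GMP (-0.07) and KO GMP (0.05). The mean of 11 proliferation markers moved the same way: 8.61 and 8.40 in Het LSK, 7.86 and 8.74 in KO LSK, 8.99 and 8.92 in Het GMP, and 8.60 and 8.89 in KO GMP. The mean of 7 neutrophil markers (Ltf, Camp, Ngp, Cebpe, S100a8, S100a9 and Mmp8) was 7.64 and 9.16 in Het LSK, 8.43 and 7.75 in KO LSK, 9.66 and 10.27 in Het GMP, and 9.42 and 9.07 in KO GMP. It was thus lower on the LSK array of each genotype with the higher member levels. The part of either list in the member levels was not tested. In bulk samples such as these, fewer cells of a type and less RNA per cell cannot be told apart.

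The 250 bases before the start sites are shown for members on which the comparisons turn, since RUNX factors need the Cbfb product and respiratory genes are known targets of NRF1, ETS-family (GABP) and YY1 factors. The first pair is the tissue isoform Cox6b2, the member with the most stable change in KO, and its common counterpart Cox6b1. The windows are chr7:4753095-4753344 (minus strand) and chr7:30626115-30626364 (minus strand), from RefSeq on GRCm38.p6, written 5′ to 3′ on the gene's strand. Capitals mark an ETS core (CCGGAA) or a CCAAT box (CCAAT), on either strand.
Cox6b2: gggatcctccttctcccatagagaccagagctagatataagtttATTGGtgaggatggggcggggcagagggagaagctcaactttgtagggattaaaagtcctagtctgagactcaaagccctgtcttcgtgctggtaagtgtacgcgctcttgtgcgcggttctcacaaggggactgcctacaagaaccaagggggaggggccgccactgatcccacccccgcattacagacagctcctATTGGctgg
Cox6b1: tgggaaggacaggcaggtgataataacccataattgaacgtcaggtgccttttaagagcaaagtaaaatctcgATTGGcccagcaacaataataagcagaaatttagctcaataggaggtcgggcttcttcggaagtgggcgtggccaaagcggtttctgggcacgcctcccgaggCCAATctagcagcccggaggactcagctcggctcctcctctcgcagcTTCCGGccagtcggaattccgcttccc
The Cox6b2 window held CCAAT boxes at 206 and 9 bases before the start. The Cox6b1 window held them at 177 and 74 bases and an ETS core at 27 bases. Neither held a RUNX (TGTGGT), NRF1 (GCGCATGC) or YY1 (AAGATGG) match.

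The other windows belong to genes that were higher in GMP: Ndufb3, with the largest rise in Het, and Ndufv3, Sdhd, Uqcrc1 and Ndufaf3, the 4 genes called in both genotypes. They are chr1:58586147-58586396 (plus strand), chr17:31519865-31520114 (plus strand), chr9:50603850-50604099 (minus strand), chr9:108936398-108936647 (plus strand) and chr9:108567437-108567686 (minus strand).
Ndufb3: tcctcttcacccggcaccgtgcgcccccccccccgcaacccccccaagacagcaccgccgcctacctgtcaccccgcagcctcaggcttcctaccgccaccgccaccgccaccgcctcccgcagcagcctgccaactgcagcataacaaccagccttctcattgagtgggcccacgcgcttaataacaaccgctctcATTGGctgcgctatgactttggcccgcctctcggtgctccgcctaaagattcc
Ndufv3: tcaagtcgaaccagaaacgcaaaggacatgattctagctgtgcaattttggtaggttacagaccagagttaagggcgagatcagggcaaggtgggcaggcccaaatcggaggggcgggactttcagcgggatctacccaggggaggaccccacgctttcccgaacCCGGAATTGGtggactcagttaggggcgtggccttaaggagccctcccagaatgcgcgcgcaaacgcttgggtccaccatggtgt
Sdhd: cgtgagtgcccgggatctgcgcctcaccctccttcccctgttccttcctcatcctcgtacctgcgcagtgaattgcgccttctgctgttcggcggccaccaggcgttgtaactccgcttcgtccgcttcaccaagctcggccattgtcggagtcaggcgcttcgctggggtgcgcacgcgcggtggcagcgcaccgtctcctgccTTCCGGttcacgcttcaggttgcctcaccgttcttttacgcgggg
Uqcrc1: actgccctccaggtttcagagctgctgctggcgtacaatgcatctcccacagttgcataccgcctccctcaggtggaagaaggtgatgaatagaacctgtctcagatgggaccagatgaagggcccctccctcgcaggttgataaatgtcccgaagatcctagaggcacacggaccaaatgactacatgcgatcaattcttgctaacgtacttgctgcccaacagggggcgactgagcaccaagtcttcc
Ndufaf3: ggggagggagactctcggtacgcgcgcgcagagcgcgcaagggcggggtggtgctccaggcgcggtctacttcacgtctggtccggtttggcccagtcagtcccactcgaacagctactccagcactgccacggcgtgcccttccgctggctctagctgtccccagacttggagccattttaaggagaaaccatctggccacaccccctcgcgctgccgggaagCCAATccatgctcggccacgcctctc
Ndufb3 held a CCAAT box at 53 bases before the start, Ndufaf3 a CCAAT box at 26 bases and Sdhd an ETS core at 45 bases. In Ndufv3 an ETS core at 85 bases and a CCAAT box at 80 bases overlap by 1 base. The Uqcrc1 window held 0 matches to the 5 motifs searched.

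Windows were matched for 73 of the 89 members (78 windows) and compared with all 32851 windows of the same length; both strands were searched. The ETS core stood in 26.9% of member windows and 12.03% of all windows, the NRF1 site in 11.5% and 2.26%, and the CCAAT box in 42.3% and 33.8%. The RUNX core stood in 11.5% of member windows and 14.05% of all, and the YY1 motif in 1.28% and 4.49%. Bases after the start were not searched, so a low share, as for YY1, does not cover matches there. A match is a description of letters and not a binding site.

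The first comparison asked what loss of both Cbfb alleles, against loss of 1, changed in LSK cells. Both calls among the 89 members were tissue isoforms of complex IV, Cox6b2 and Cox6a2, and both fell in KO; no member rose. The 2 calls are 2.25% of members, where 7.73% of all rows were called and 4.71% were called lower. The median member difference was -0.01 (all rows 0.01), with 38 members above 0 and 51 below (48.2% of all rows were below). Without adjustment for multiple testing, 2 members were higher and 5 lower at p under 0.05. The share of all rows at that unadjusted threshold is not given for any comparison, so such counts have no background beside them.

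Cox6b2, the isoform of subunit 6b best known from testis, stood at 8.21 and 8.06 in Het LSK and at 6.34 and 6.60 in KO LSK. The groups were far apart on this gene, and both Het arrays were high. It fell by 1.66 (SE 0.21, 3.17-fold, limma adjusted p = 0.00157), and the call held in all 16 settings tried. Cox6a2, the heart and muscle isoform of subunit 6a, stood at 7.91 and 6.75 in Het LSK and at 5.79 and 5.57 in KO LSK. The Het arrays differed from each other by more than the KO arrays did, but both lay above both KO arrays. It fell by 1.65 (SE 0.31, 3.14-fold, limma adjusted p = 0.0124). This call was lost without KO LSK replicate 2 (adjusted p = 0.0579) and with unnamed rows tested as well (adjusted p = 0.0654).

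The mean of 6 B cell markers (Cd79a, Cd79b, Pax5, Ebf1, Vpreb1 and Ms4a1) had the same order as Cox6a2 on the LSK arrays: 6.84 and 6.42 in Het LSK, 4.69 and 4.44 in KO LSK, and 4.21 to 4.54 on the GMP arrays. Of these markers, 5 were called lower in KO LSK, and the call of Cd79b was lost without Het LSK replicate 1. The mean of 6 megakaryocyte markers (Itga2b, Gp5, Gp9, Pf4, Treml1 and Clec1b) ran the other way, from 6.49 and 6.47 in Het LSK to 8.93 and 8.67 in KO LSK, and from 5.22 and 5.59 in Het GMP to 9.17 and 9.44 in KO GMP. In KO LSK 4 of them were called higher, and 1, Pf4, was called lower (-1.25). The Pf4 call was lost without Het LSK replicate 2. Their part in the Cox6a2 and Cox6b2 differences was not tested.

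Neither common counterpart was called; whether their difference departs from that of the tissue isoforms was not tested. Cox6b1 stood at 11.60 and 11.41 in Het LSK and 11.40 and 11.76 in KO LSK, and the groups overlapped (difference 0.08, adjusted p = 0.841). Cox6a1 stood at 11.164 and 10.974 against 10.997 and 11.276 (0.07, adjusted p = 0.854). Of the other 6 tissue isoforms or relatives, Cox4i2, the lung isoform of subunit 4, had a difference of 0.33 (adjusted p = 0.229), Cox8b -0.26, Ndufa4l2 0.24, Cox7b2 -0.11, and Cox7a1 and Cox8c 0.01 each. None of the 6 was called.

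**Figure D2:**
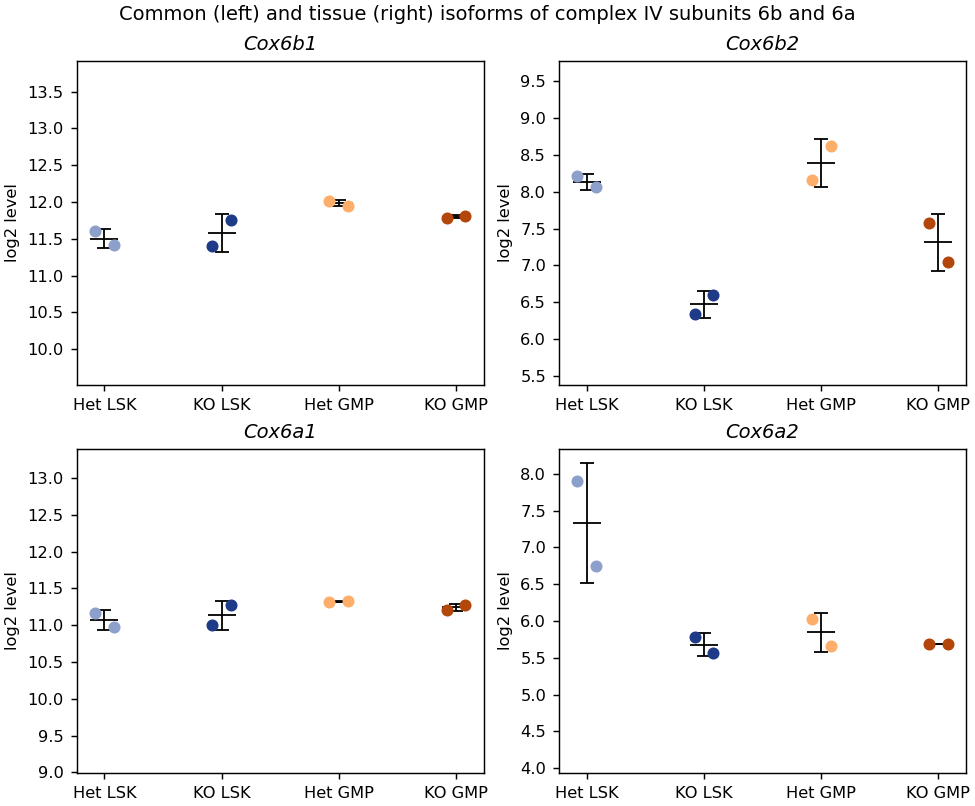
Log2 level on each array of the common (left) and tissue (right) isoforms of complex IV subunits 6b and 6a in the 4 groups; points are arrays, the long bar is the mean and the whiskers are 1 SD (n = 2). Cox6b2 lies lower in KO in both cell types, and Cox6a2 is highest on the Het LSK arrays (7.91 and 6.75).

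In complex I, 0 of 34 members were called in KO LSK by limma (0 higher and 2 lower without adjustment). The highest difference was that of Ndufb3, an accessory subunit of the membrane arm, at 0.29 (adjusted p = 0.337), and the lowest that of Ndufs8, an iron-sulfur subunit of the quinone-reducing module, at -0.38 (adjusted p = 0.145). The 6 core subunits measured in the matrix arm had differences of 0.05 (Ndufs1), -0.01 (Ndufv2), -0.13 (Ndufs7), -0.18 (Ndufs3), -0.34 (Ndufv1, which takes electrons from NADH) and -0.38 (Ndufs8). In complex II the catalytic subunits Sdha and Sdhb had differences of -0.23 and -0.32 and the membrane anchors Sdhc and Sdhd of 0.07 and -0.19. In complex III the range ran from -0.22 (Uqcrc1, a core protein) to 0.37 (Uqcrb), and in complex V from -0.31 (Atp5d, of the rotating shaft) to 0.12 (Atp5md). Ndufa4 had the widest difference upward in complex IV, from 11.84 and 11.68 to 12.02 and 12.18 (0.34, adjusted p = 0.151); with a trended and robust variance prior it was called (adjusted p = 0.0187).

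The direction of the LSK median rested on single arrays. It was 0.11 without KO LSK replicate 1 (74 members above 0), -0.17 without KO LSK replicate 2 (76 below), 0.04 without Het LSK replicate 1 and -0.12 without Het LSK replicate 2. It was also 0.07 when each array's median was subtracted, so no common direction of the members in KO LSK can be given.

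The same comparison in GMP cells gave small differences that mostly pointed downward, with a single call. Cox6b2 was the member called, and it was lower in KO; 0 members were called higher. That is 1.12% of the members, where 6.02% of all rows were called and 2.57% were called lower. Yet 82 of 89 members had a difference below 0, compared with 53.2% of all rows and 55.2% of rows brighter than the median row. Because the members moved together across arrays, this count and the like counts below are not separate observations. Even between the replicates of a single group, KO LSK, 84 members differed in the same direction. Between the replicates of the GMP groups compared here, 69 members did so in Het and 64 in KO, by smaller medians (-0.07 and 0.05). The median difference was -0.16 (1.11-fold), and that of all rows -0.02. The 2 groups did not overlap in 62 members with KO lower and in 2 with KO higher, where 27.9% and 23.4% of all rows were so separated. Without adjustment, 13 members were lower and 0 higher at p under 0.05, again with no share of all rows beside it.

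Cox6b2 stood at 8.16 and 8.62 in Het GMP and at 7.58 and 7.04 in KO GMP. The groups did not overlap, but the KO arrays differed from each other by more than they did in LSK. It fell by 1.08 (SE 0.21, 2.11-fold, limma adjusted p = 0.0183). The call was lost if replicate 2 of either GMP group was left out (adjusted p up to 0.142) and with unnamed rows tested as well. Cox6a2, at 6.03 and 5.66 in Het GMP and 5.69 on both KO GMP arrays, had a difference of -0.16 (adjusted p = 0.871). The other tissue isoforms or relatives ranged from -0.39 (Ndufa4l2) to 0.07 (Cox8b), with Cox7a1 at -0.37, Cox4i2 at -0.09, and Cox7b2 and Cox8c at -0.04.

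By complex, differences below 0 were counted in 33 of 34 members of complex I, 3 of 4 of complex II, 8 of 8 of complex III, 17 of 19 of complex IV, 16 of 17 of complex V and 5 of 7 assembly factors. Their medians were -0.19, -0.17, -0.21, -0.10, -0.10 and -0.28. In complex I, Ndufs6, an accessory subunit of the matrix arm, stood at 9.77 and 9.90 in Het GMP and 9.33 and 9.41 in KO GMP (-0.47, adjusted p = 0.208). Ndufb7 stood at 10.998 and 10.904 against 10.437 and 10.570 (-0.45, adjusted p = 0.160). Both genes were lower on both KO arrays without passing the test, while Ndufv3, at 0.03, had the highest difference of the complex. The core subunits ranged from -0.39 (Ndufv1) through -0.27 (Ndufs3), -0.24 (Ndufs8), -0.21 (Ndufv2) and -0.13 (Ndufs7) to Ndufs1, which was level.

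In complex III, Uqcrq stood at 10.01 and 9.81 in Het GMP and 9.30 and 9.55 in KO GMP (-0.48, adjusted p = 0.230), and Uqcr11 at 10.22 and 10.15 against 9.62 and 9.82 (-0.47, adjusted p = 0.141). Both encode small subunits, and the Het arrays were the higher in each. The hinge protein gene Uqcrh had the smallest difference of the complex (-0.01). In complex V the ring subunit gene Atp5g1 stood at 11.22 and 11.09 against 10.67 and 10.71 (-0.46, adjusted p = 0.207). The other ring subunit genes, Atp5g2 and Atp5g3, had differences of -0.09 and -0.05, and the highest value of the complex was Atp5md at 0.02. In complex II, Sdhb was at -0.21, Sdhc at -0.19, Sdhd at -0.16 and Sdha at 0.06. Cox7a2l, a gene related to that of subunit 7a, had the highest difference of all members (0.22, limma adjusted p = 0.442).

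The downward median in KO GMP held when any array was left out, between -0.20 and -0.13, and was -0.21 with array medians subtracted. Of 77 mitochondrial ribosomal protein genes, 75 had a difference below 0 (median -0.26), as had 23 of 25 genes of the import channels (median -0.23). Proliferation markers were below 0 in 9 of 11 (median -0.22). Of the GMP markers 7 of 8 lay below 0, and 2, Cebpa and Csf1r, were called lower (-1.67 and -1.23). The Csf1r call was lost without either Het GMP array or KO GMP replicate 2. Of 5 erythroid markers 2, Gata1 and Epor, were called higher, as were 6 of 6 megakaryocyte markers (median 4.13). The part of proliferation or of these cell types in the member differences was not tested.

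Whether the KO effect differed between GMP and LSK was asked with the interaction term. By limma, 0 of 89 members were called, where 2.29% of all rows were; without adjustment, 1 member was higher and 2 lower. Cox6a2 had the largest interaction, 1.49 (SE 0.44, adjusted p = 0.157); without Het LSK replicate 2 the interaction was called (2.07, adjusted p = 0.0135). Ndufb3 had the largest negative value, -0.68 (SE 0.21, adjusted p = 0.183). For Cox6b2 it was 0.58 (adjusted p = 0.475), so its smaller fall in GMP was not distinguished from that in LSK. In complexes II to V the lowest values were -0.25 (Sdhc), -0.52 (Uqcrb), -0.63 (Ndufa4l2) and -0.23 (Atp5k), and the highest values by complex were 0.29 (Sdha), 0.14 (Ndufs8), 0.08 (Atp5d), 0.06 (Uqcrc2) and, for complex IV, that of Cox6a2. The median, -0.12 with 71 members below 0 (53.4% of all rows), turned to 0.02 without KO LSK replicate 2.

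**Figure D3:**
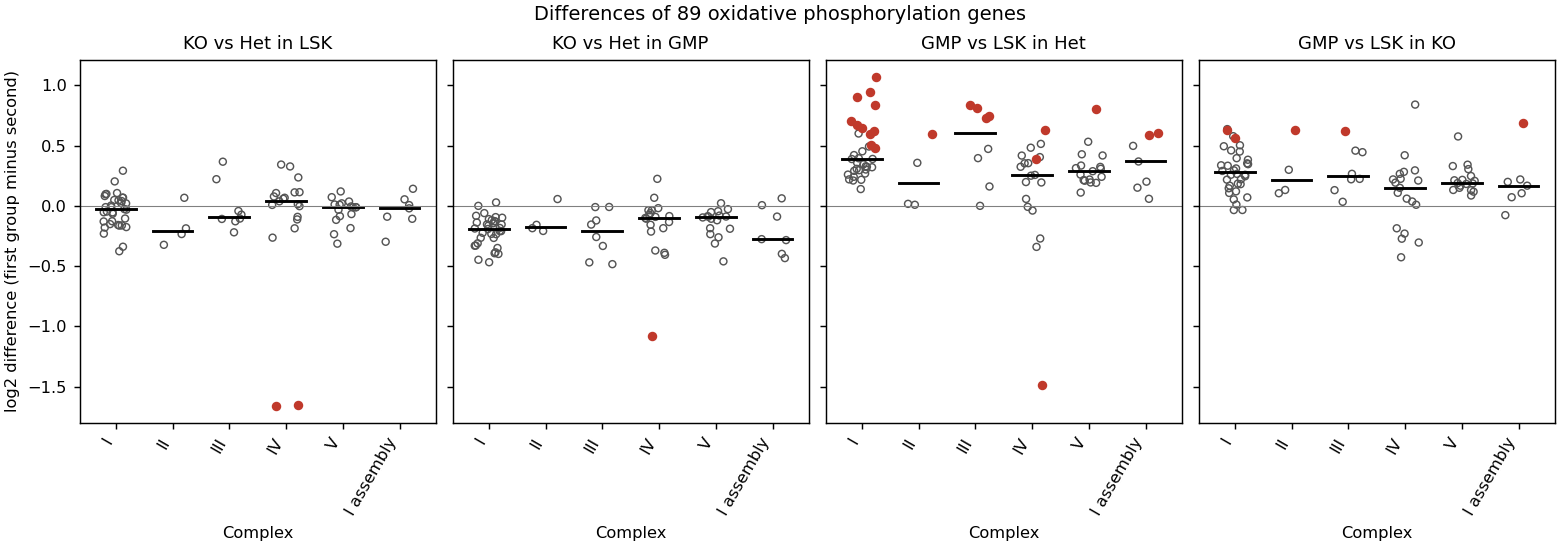
Log2 difference of each member, first group named minus second, by complex in 4 comparisons; filled points passed limma's adjusted p under 0.05 and bars are medians. Calls are few between genotypes (2 in LSK and 1 in GMP) and more numerous between cell types in Het (22) than in KO (5).

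The next comparison set GMP against LSK in Het mice. Oxidative phosphorylation genes were higher in GMP: 21 of 89 rose and 1, Cox6a2, fell. The 22 calls are 24.7% of the members, where 17.5% of all rows were called; 23.6% of members were called higher, against 7.9% of all rows and 13.7% of the rows brighter than the median row, while 9.6% of all rows were called lower. The median difference was 0.33 (1.26-fold), and that of all rows 0.01. A difference above 0 was seen in 84 members (51.0% of all rows), and both GMP arrays lay above both LSK arrays in 74, where 29.7% of all rows were separated that way. The proliferation markers were higher in GMP too, by a median of 0.52, with 11 of 11 above 0 and 1 called; their part was not tested.

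Complex I had the most calls, 11 of 34, and its 34 members all had a difference above 0 (median 0.39). In the membrane arm 8 of 19 rose. Ndufb3 stood at 6.208 and 5.996 in LSK and at 7.236 and 7.113 in GMP, the largest rise of any member (1.07, SE 0.15, 2.10-fold, limma adjusted p = 0.00130). Ndufb2 stood at 8.15 and 7.45 against 8.76 and 8.64 (0.90, SE 0.24, adjusted p = 0.0306), with LSK arrays that lay farther apart than the GMP arrays. Ndufa1, an X-linked membrane subunit gene, stood at 9.32 and 9.06 against 10.01 and 10.05 (0.84, SE 0.18, adjusted p = 0.0111). Ndufb8 rose by 0.71 (adjusted p = 0.0164), and the others were Ndufs5 (0.67), Ndufb6 (0.62), Ndufb7 (0.60) and Ndufb10 (0.48).

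In the matrix arm 3 of 15 rose. Ndufs6 stood at 8.99 and 8.80 in LSK and 9.77 and 9.90 in GMP (0.95, SE 0.18, limma adjusted p = 0.00624). Ndufv3, of the NADH-oxidising module, stood at 8.08 and 7.97 against 8.69 and 8.64 (0.64, adjusted p = 0.0104). Ndufv1 was the single core subunit called, at 8.12 and 8.07 against 8.68 and 8.52 (0.50, adjusted p = 0.0254). The other measured core subunits were above 0 without a call: Ndufs8 0.42, Ndufs1 0.36, Ndufv2 0.27, Ndufs7 0.22 and Ndufs3 0.14, the lowest of complex I. Of the assembly factors, Ndufaf3 (0.59, adjusted p = 0.00738) and Ndufaf6 (0.60, adjusted p = 0.0276) rose, and the other 5 ranged from 0.06 to 0.50.

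In complex III, 4 of 8 rose, and the median difference, 0.60, was the highest of the complexes. Uqcrc1, a core protein of the complex, stood at 8.20 and 8.07 in LSK and 8.97 and 8.77 in GMP (0.73, SE 0.13, limma adjusted p = 0.00377). Uqcrq (0.83, adjusted p = 0.0164), Uqcr11 (0.81, adjusted p = 0.00692) and Uqcrb (0.74, adjusted p = 0.0200), which encode small subunits, were the others. The groups overlapped for Uqcrh: its LSK arrays were at 11.30 and 11.25 and its GMP arrays at 11.27 and 11.28. In complex II, Sdhd, a membrane anchor that binds heme and ubiquinone with Sdhc, stood at 8.07 and 7.79 against 8.53 and 8.52 and rose by 0.60 (adjusted p = 0.0114). Sdhc had a difference of 0.36 (adjusted p = 0.124), and the catalytic Sdha and Sdhb of 0.01 and 0.02.

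Complexes IV and V had fewer calls. In complex V, 1 of 17 rose although all 17 had a difference above 0 (median 0.29): Atp5g1 stood at 10.47 and 10.23 in LSK and 11.22 and 11.09 in GMP (0.80, SE 0.18, limma adjusted p = 0.0128). The ring genes Atp5g2 and Atp5g3, which encode the same mature ring protein, had differences of 0.21 and 0.19, and the lowest was Atp5d at 0.11. In complex IV, 2 of 11 common subunits rose, Cox7a2 (9.53 and 9.28 against 10.04 and 10.03; 0.63, adjusted p = 0.0135) and Cox4i1 (10.26 and 10.17 against 10.65 and 10.55; 0.39, adjusted p = 0.0457). Cox7a2l had the lowest difference of the common genes, -0.34 (adjusted p = 0.110). Cox6a2 fell by 1.49 (SE 0.31, adjusted p = 0.0108), from 7.91 and 6.75 to 6.03 and 5.66. Its GMP arrays lay near the KO LSK arrays. The other tissue isoforms or relatives were not called: Ndufa4l2 0.35, Cox6b2 0.26, Cox7a1 0.20, Cox8c 0.19, Cox4i2 -0.01, Cox7b2 -0.04 and Cox8b -0.27.

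Most of these calls rested on the full set of arrays: 2 of 22, Ndufb3 and Uqcrc1, held in all 16 settings. The count was 4 without Het LSK replicate 2, without Het GMP replicate 1 or without Het GMP replicate 2, and 32 without either KO LSK array. Without any 1 of those 3 Het arrays the calls of Atp5g1, Cox7a2, Ndufa1, Ndufb2, Ndufb8, Ndufs5, Ndufv3, Sdhd, Uqcrb and Uqcrq were lost (adjusted p up to 0.0755 for Ndufv3 and up to 0.197 for Ndufb2). Those of Ndufaf6, Ndufb10, Ndufb7 and Ndufv1 were also lost without Het LSK replicate 1 (up to 0.181), and those of Ndufb6 and Cox4i1 also without either KO GMP array (up to 0.234). Ndufs6 was lost without Het LSK replicate 2 or Het GMP replicate 2 (up to 0.0546), Uqcr11 without Het LSK replicate 2 or Het GMP replicate 1 (up to 0.0607), Ndufaf3 without Het GMP replicate 1 (0.0715) and Cox6a2 without Het GMP replicate 2 (0.0835). The direction of the median held, from 0.25 without Het LSK replicate 2 to 0.42 without Het LSK replicate 1. Subtracting array medians shifts all rows by 0.16 in this comparison and gave 44 members higher and 1 lower, with a median of 0.49. The share of all rows called in these alternatives is not given.

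In KO mice the rise from LSK to GMP was called for fewer members: 5 of 89 rose and 0 fell. That is 5.62% of members, where 6.05% of all rows were called and 3.66% were called higher, so the share is near the background. The median difference was 0.22 (1.16-fold; all rows -0.02), and 81 members lay above 0 (46.1% of all rows). Both GMP arrays lay above both LSK arrays in 49 members and below them in 5, where 21.5% and 26.0% of all rows were so separated.

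Ndufaf3 stood at 7.42 and 7.37 in KO LSK and 8.07 and 8.10 in KO GMP (0.68, SE 0.11, limma adjusted p = 0.00903), and replicates agreed closely in both groups. Sdhd stood at 7.71 and 7.77 against 8.39 and 8.34 (0.63, adjusted p = 0.0222), and Uqcrc1 at 7.85 and 7.98 against 8.53 and 8.54 (0.62, adjusted p = 0.0218). Ndufv3 stood at 7.93 and 8.20 against 8.61 and 8.77 (0.63, adjusted p = 0.0279). These 4 genes rose in both genotypes: 19.0% of the 21 rises in Het and 80.0% of the 5 in KO. The comparisons share no arrays, but the fit gives them a common estimate of the spread, so the calls are not independent. Ndufs8, the iron-sulfur core subunit, was called in KO alone (8.42 and 8.55 against 8.99 and 9.11; 0.56, adjusted p = 0.0406), but its interaction of 0.14 (adjusted p = 0.844) does not set the genotypes apart.

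Among genes not called in KO, Cox6b2 stood at 6.34 and 6.60 in KO LSK and 7.58 and 7.04 in KO GMP, the largest difference of any member (0.84, SE 0.21, adjusted p = 0.0553). Ndufs6 had 0.64 (adjusted p = 0.0781), Atp5g1 0.58 (adjusted p = 0.102) and Ndufb3 0.40 (adjusted p = 0.188). The core subunits besides Ndufs8 ranged from 0.05 (Ndufs3) through 0.07 (Ndufv2), 0.22 (Ndufs7) and 0.31 (Ndufs1) to 0.45 (Ndufv1). Sdha had 0.30, Sdhb 0.13 and Sdhc 0.10. The lowest values by complex were -0.03 (Ndufs4), 0.03 (Uqcrh), -0.43 (Cox4i2) and 0.09 (Atp5j2). The remaining tissue isoforms or relatives were Ndufa4l2 -0.27, Cox7a1 -0.19, Cox6a2 0.01, Cox7b2 0.04, Cox8b 0.06 and Cox8c 0.15. Ndufa4, at 12.02 and 12.18 in KO LSK and 11.77 and 11.83 in KO GMP, had a difference of -0.30 (adjusted p = 0.212).

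The KO count and its median depended on the KO LSK arrays. Without KO LSK replicate 1 there was 1 call and a median of 0.06, with 29 members below 0; without KO LSK replicate 2 there were 9 calls and a median of 0.38. The count was 0 without KO GMP replicate 1, 1 without KO GMP replicate 2, and 3 without either Het GMP array. Ndufaf3 lost its call without either KO GMP array (adjusted p up to 0.0729), Sdhd and Uqcrc1 without these or KO LSK replicate 1 (up to 0.134 and 0.127), Ndufv3 also without either Het GMP array (up to 0.193), and Ndufs8 also without KO LSK replicate 2 (up to 0.243).

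Set side by side, 78 of 89 members had a GMP minus LSK difference above 0 in both genotypes, and in 71 the difference was larger in Het, which is the interaction count given above. Across genes, which are not independent replicates and share arrays, the Het and KO differences correlated with Pearson r = 0.59 and Spearman rho = 0.73 (89 genes), and with 0.76 for both over the 74 genes other than tissue isoforms and assembly factors. No single member's interaction passed the test, so a smaller rise in KO was not shown for any gene.

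**Figure D4:**
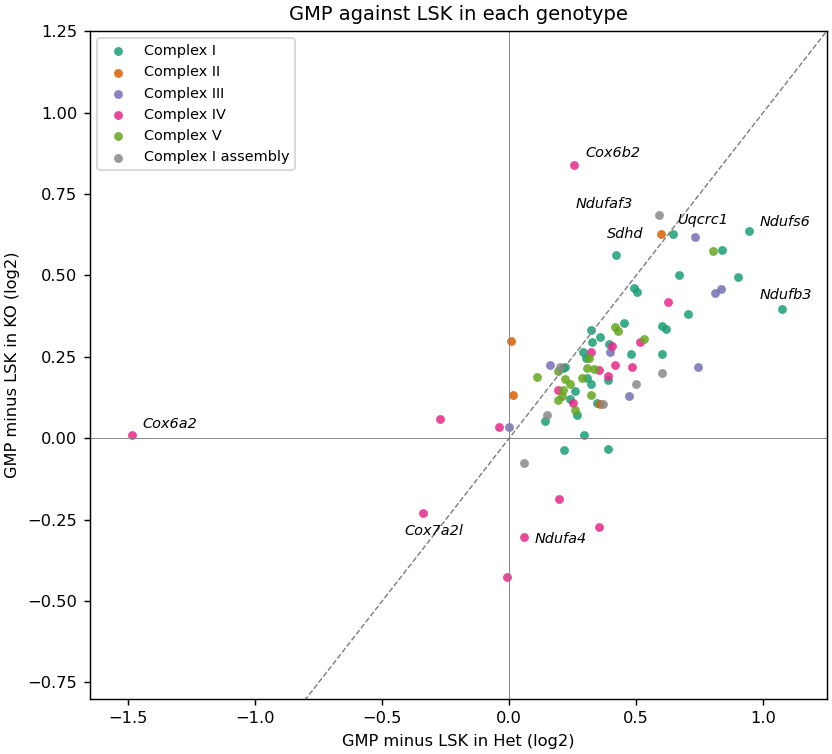
GMP minus LSK difference of each member (log2) in Het on the x axis and in KO on the y axis, coloured by complex; the dashed line marks equal differences. In 78 of 89 genes both differences are above 0, and in 71 the Het difference is the larger; Cox6a2 lies at -1.49 and 0.01.

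Other genes of the mitochondrial energy pathway were described from lists by role. Of 22 electron carrier and exchange genes, 0 were called in KO LSK and 1 fell in KO GMP. It was Cycs, the gene of cytochrome c, at 10.196 and 9.998 in Het GMP and 9.252 and 9.374 in KO GMP (-0.78, SE 0.18, limma adjusted p = 0.0350; lost without any of the 4 GMP arrays, up to 0.239). From LSK to GMP in Het, 6 rose, among them Cycs (1.00, adjusted p = 0.00467) and Etfb, of the electron transfer flavoprotein (1.00, adjusted p = 0.00170). In KO 1 rose, Etfb (1.00, adjusted p = 0.00468), and its calls in both genotypes held with any array left out. The 6 rises in Het were 2 or 3 without any 1 of the GMP or Het LSK arrays. The widest uncalled differences in KO LSK were Coq7 and Coq4 of ubiquinone synthesis, both -0.29.

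Of 12 genes of pyruvate entry, 1 fell in KO LSK and 3 in KO GMP, which are 8.33% and 25% of the list where 4.71% and 2.57% of all rows were called lower. Pdk1, a kinase that inhibits pyruvate dehydrogenase, stood at 7.40 and 7.29 in Het LSK and 6.92 and 6.83 in KO LSK (-0.47, limma adjusted p = 0.0399), and at 7.25 and 7.17 against 6.62 and 6.59 in GMP (-0.60, adjusted p = 0.0153). Mpc1, of the mitochondrial pyruvate carrier, stood at 8.78 and 8.86 against 8.27 and 7.94 in GMP (-0.72, adjusted p = 0.0356), and Dlat, the E2 subunit of pyruvate dehydrogenase, at 7.74 and 7.76 against 7.31 and 7.21 (-0.49, adjusted p = 0.0408). The falls thus included an inhibitor of the complex as well as its subunit and the carrier. The Pdk1 call in LSK was lost with any of the 8 arrays left out (up to 0.192), and the GMP calls of Pdk1, Mpc1 and Dlat without either Het GMP array or KO GMP replicate 2 (up to 0.127, 0.248 and 0.250); those of Pdk1 and Dlat were also lost without KO GMP replicate 1 and that of Dlat without either Het LSK array. From LSK to GMP in Het, 3 rose and 1 fell: Mpc1 rose by 1.19 (adjusted p = 0.00117), and Pdk2 fell by 1.03 (adjusted p = 0.0156; lost without either Het LSK array or Het GMP replicate 1). In KO 2 rose, Mpc1 (1.00, adjusted p = 0.00767; lost without KO GMP replicate 1) and Pdha1 (0.47, adjusted p = 0.0488; lost with any array left out).

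Of 13 citrate cycle genes, 0 were called between genotypes in either cell type; Suclg1 had the widest differences, -0.32 in LSK and -0.48 in GMP (adjusted p = 0.0654). In Het, 4 rose in GMP, led by Dld (0.60, limma adjusted p = 0.0132) and Suclg1 (0.55, adjusted p = 0.0173), both lost without Het LSK replicate 2 or Het GMP replicate 1, when the list had 0 calls, and 0 were called in KO, where Cs was at 0.46 (adjusted p = 0.0726). Of 19 regulators and genes of mitochondrial DNA upkeep, Ppargc1a, the PGC-1 alpha coactivator gene, fell in KO LSK, from 4.31 and 3.78 to 3.01 and 2.82 (-1.13, SE 0.18, adjusted p = 0.00486). It also fell from LSK to GMP in Het (-1.33, adjusted p = 0.000996), where it stood at 2.67 and 2.76; both calls held with any array left out, and these levels are near the low end of the arrays, whose medians were 4.92 to 5.09. Like Cox6a2, Ppargc1a was highest on the Het LSK arrays. Gabpb1, of the ETS-family factor GABP, fell by 0.85 from LSK to GMP in Het (adjusted p = 0.00162); in KO GMP against Het it was at 0.46 (adjusted p = 0.0724).

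Of 26 assembly factors without an Ndufaf symbol, 0 were called between genotypes (widest in LSK Nubpl -0.46 and Atpaf1 0.43; in GMP Ecsit -0.50 and Sco1 -0.40), 7 rose in Het GMP, among them Ecsit (0.61) and Cox17 (0.58), and 0 were called in KO. The 7 rises in Het became 0 without Het LSK replicate 2 or Het GMP replicate 1, 1 without Het GMP replicate 2, 3 without Het LSK replicate 1, 4 without either KO GMP array and 10 without either KO LSK array; Ecsit and Cox17 each lost the call without any 1 of 3 arrays (up to 0.189 and 0.163). Of 77 mitochondrial ribosomal protein genes, 0 were called in KO LSK, and in KO GMP Mrpl33 fell (-0.71, limma adjusted p = 0.0160) and Mrpl52 rose (0.65, adjusted p = 0.0130); both were lost without any of the 4 GMP arrays. In Het 24 rose in GMP and 1, Mrpl52, fell (-0.71, adjusted p = 0.00351), with Mrpl51 the largest rise (1.07, adjusted p = 0.00304), and in KO 2 rose, Mrpl19 (0.63) and Mrps5 (0.53). The count of 24 was 4 without Het GMP replicate 1, 6 without Het LSK replicate 2 and 11 without Het GMP replicate 2, and between 21 and 34 without any other array; Mrpl51 and Mrpl52 held throughout. In KO, Mrpl19 held without 3 of the 8 arrays (adjusted p up to 0.225) and Mrps5 without 1 (up to 0.280). Of 25 import channel genes, 0 were called between genotypes, 8 rose in Het GMP, led by Timm29 (0.72, adjusted p = 0.00218) and Timm23 (0.69), and 2 in KO, Timm17b (0.57) and Tomm40 (0.53), neither of which held with every array left out in turn. The 8 in Het were 2 without Het GMP replicate 1, 3 without Het LSK replicate 2, 4 without Het GMP replicate 2, 5 without either KO GMP array and 14 without either KO LSK array. The mitochondrial genome's own transcripts were measured by 2 rows: ND3 stood between 10.26 and 10.47 and COX2 between 11.85 and 12.17 on all arrays, with 0 calls in any comparison (0 at an unadjusted p under 0.05) and differences between groups of at most 0.10 in size.

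Called higher from LSK to GMP in Het were 27.3% of the electron carrier and exchange genes, 25% of pyruvate entry, 30.8% of the citrate cycle, 0 of the regulators, 26.9% of other assembly factors, 31.2% of mitochondrial ribosomal proteins and 32% of import channels, beside 7.9% of all rows. Of the rows brighter than the median row, 13.7% were called higher in Het, and most genes of these lists lay above the array medians. In KO the shares of the lists were 4.55%, 16.7%, 0, 0, 0, 2.6% and 8.0%, beside 3.66% of all rows. The share of brighter rows in KO is not given.

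**Figure D5:**
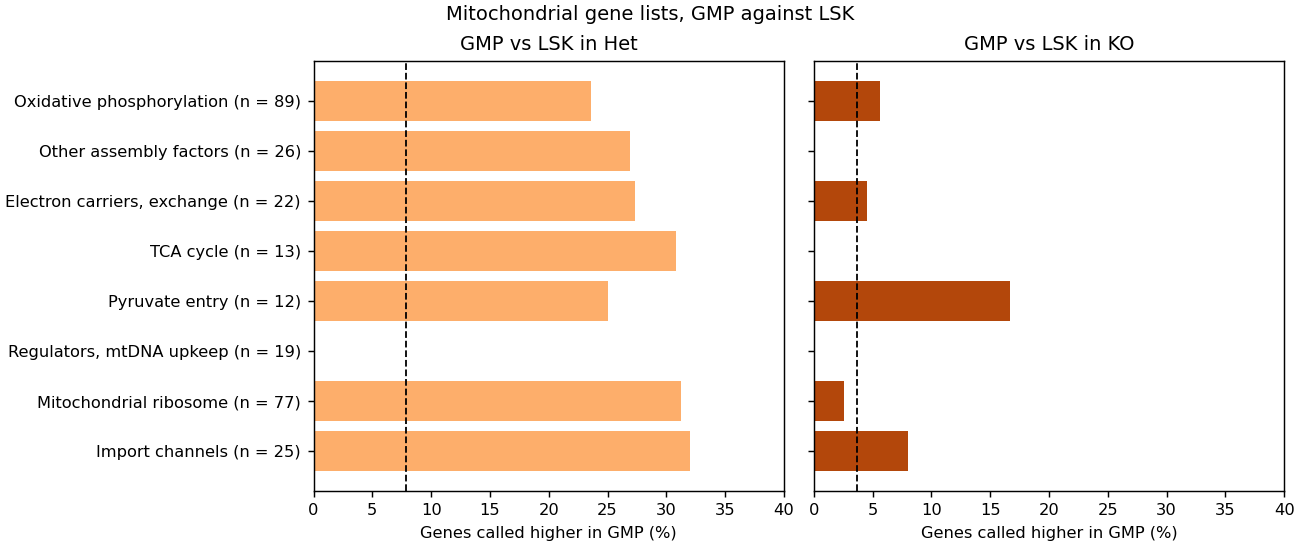
Share of the measured genes of each mitochondrial list called higher in GMP than in LSK (%, limma adjusted p under 0.05), in Het (left) and KO (right); the dashed line is the share over all rows (7.9% and 3.66%). In Het 23.6% of oxidative phosphorylation genes were called higher, and in KO 5.62%. Of the rows brighter than the median row, 13.7% were called higher in Het, which the line does not show.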

How the data were processed

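The authors deposited log2 expression levels, 1 for each transcript cluster and array. The submitters' processing notes name RMA, which corrects background, equalises the arrays' distributions and summarises probes; software, version and build: not given in the sources used here. A change in all transcripts together is thus invisible, and there is no detection call. Per the labels, RNA was extracted with a NucleoSpin RNA XS kit, amplified with NuGEN reagents and labelled with biotin; amplification can compress or stretch differences. The number of arrays limits the precision.

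Of 35556 rows, the platform annotation gave 1 symbol to 21789, several to 1621 and none to 12146; only the first were tested. Of these 21698 matched the RefSeq table (GRCm38.p6) by Entrez number, as did all 89 members, with 0 renamed. Many respiratory genes have processed copies elsewhere in the genome, and probes that match a copy cannot be told apart from the gene. limma 3.58.1 (R 4.3.3) fitted group means to the 8 arrays together (4 residual and 4.83 prior degrees of freedom), with Benjamini-Hochberg adjustment over the 21789 rows of each of 5 contrasts, two-sided; SE is limma's. The fit was also run on simulated data with independent noise for each row, and the outcome is not given here. Such data lack the shared shift of members between arrays, so that run does not test the member counts. Deviations of same-numbered LSK and GMP arrays of a genotype correlated at 0.133 in Het and 0.179 in KO. Other same-numbered arrays correlated at -0.143 to -0.0255. Because the labels do not tie an array to a mouse, the main fit did not treat any arrays as pairs, and whether they are pairs was not settled. The members and lists were chosen with earlier results of these data known.

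Named genes were all members called in any comparison, the extremes of each complex, the core and tissue isoform lists and Sdha to Sdhd. Of other lists, up to 4 called genes or the 2 widest were named. Motifs were searched in the 250 bases before each RefSeq start. Alternatives were array medians subtracted, all rows or brighter rows tested, the 2 groups' arrays alone, another variance prior, replicate blocks, the mean of a gene's rows, and each array left out.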

Additional observations from a re-analysis of the deposited data

How the results depend on the processing

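Among the counts of members called, testing all rows of the table gave 1 in KO LSK (2 as reported), 0 in KO GMP (1), 11 from LSK to GMP in Het (22) and 1 in KO (5). Testing brighter rows alone gave 34 in Het and 8 in KO, and a trended and robust variance prior 39 and 10. Subtracting array medians gave 45 in Het, and fitting the arrays of the 2 groups alone 1 in KO. Leaving out each array gave 1 to 2 in KO LSK, 0 to 1 in KO GMP, 0 to 1 for the interaction, 4 to 32 in Het and 0 to 9 in KO. The median member difference with array medians subtracted was 0.4895 in Het and -0.2599 for the interaction. With each array left out it ran from -0.1706 to 0.113 in KO LSK, -0.2035 to -0.1266 in KO GMP, -0.2768 to 0.0236 for the interaction, 0.2473 to 0.4205 in Het and 0.0565 to 0.3779 in KO. The cause was not tested, beyond the smaller or larger number of rows adjusted for and the fewer arrays. No called difference changed sign in any alternative. A replicate block on the array number gave 2, 1, 0, 21 and 4 calls in KO LSK, KO GMP, the interaction, Het and KO, and a random block of genotype and number 2, 1, 0, 28 and 6; in the check of pairing, the numbers were not shown to pair the arrays. Where a gene's rows were averaged, 23 members were called in Het and 5 in KO. The share of all rows called under each alternative is not given, so a larger count is not by itself a stronger result for the members. The pooled SD of the member median over the arrays of a group was 0.13. With 2 arrays a group, a difference of group means has a standard error of about that size. The pooled value takes in the LSK arrays, whose member medians lay farther apart (9.32 and 9.14 in Het, 9.09 and 9.42 in KO). The GMP arrays lay closer together (9.77 and 9.81 in Het, 9.45 and 9.49 in KO). The KO GMP median of -0.16 is a median of gene differences, which is another measure than a difference of median levels. With 2 arrays a group, whether it lies beyond the spread of the GMP arrays was not tested. When an array is left out, the lone array of its group is assumed to vary like the other groups.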

Other observations

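Of the 89 members, 17 had several rows of their own, 42 rows in all. Of their 25 rows not used above, 5 were called between GMP and LSK in Het and 0 in the other comparisons, and 0 of the 17 genes had rows called in opposite directions. The second row of Atp5g1 rose by 0.75 from LSK to GMP in Het (limma adjusted p = 0.0173), beside 0.80 for the row described above. For Ndufa11 the call depended on the row. Its second row was called in Het (0.61, limma adjusted p = 0.0329), and the row used for the counts was not (0.49, adjusted p = 0.0647). Among the 6 rows with several symbols, the row shared by Ndufs5 and its pseudogene was called in Het (0.67, adjusted p = 0.0430). The rows shared by Ndufb4 and a relative stood at 0.71 (adjusted p = 0.0691) and 0.66 (adjusted p = 0.108), and the 3 rows that hold Cox7c between 0.20 and 0.24. In KO GMP against Het, the Cox7c rows lay between -0.01 and 0.02 and the Ndufb4 rows at -0.38 and -0.30, none of them called.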
